A study of Mus musculus with 12 samples.

Results

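Ion and bicarbonate exchangers of 6 solute carrier families were followed in the pituitary of newborn mice: Slc4, Slc8, Slc9, Slc12, Slc24 and Slc26. All 51 genes of the deposited per-library table whose symbol places them in these families were taken, of 27129 genes in all, and 37 of them were abundant enough to be tested. RNA was sequenced from pituitaries of mice at postnatal day 0 with the posterior lobe removed, in 12 libraries, each an individual sample per the design text. The 6 mutant glands carried 1 floxed and 1 null allele of Isl1, a LIM-homeodomain transcription factor, and the 6 control glands carried 1 floxed and 1 wild-type allele. Both groups also carried the same Cre transgene, which the series title places in pituitary progenitors. Control glands were therefore not free of Cre, and the allele it can act on is present in both groups. Libraries are numbered 0 to 5 in each group, as in the deposited table.

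These proteins move ions across membranes down or against the gradients that the sodium-potassium pump sets up. SLC4 and SLC26 proteins carry bicarbonate, chloride and related anions, SLC9 proteins trade sodium for protons, and SLC12 proteins carry chloride with sodium or potassium. SLC8 and SLC24 proteins exchange calcium for sodium, at the plasma membrane or at membranes inside the cell. Hormone cells of the pituitary fire calcium-carrying action potentials to secrete, so calcium removal, chloride and pH all bear on their work. Epithelia that line fluid-filled cavities use the same families to secrete or absorb salt, bicarbonate and water. Of the 51 symbols, 3 fall under the family names without encoding a transporter: Slc9a3r1 and Slc9a3r2 encode the scaffolds NHERF1 and NHERF2, and Slc4a1ap encodes kanadaptin. The table uses older symbols for a pair of genes, Slc24a6 for Slc8b1 and Slc9a10 for Slc9c1.

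Mutant libraries held 45415453 to 61533576 fragments and control libraries 46204920 to 51535425, and the 51 genes took 0.159% to 0.173% of the fragments of a library. The level of Isl1 itself was 53.4 to 68.2 CPM (counts per 1000000 fragments after TMM scaling) in mutant libraries and 31.8 to 40.8 CPM in control libraries. That level pools all exons, so it checks nothing about the floxed exons, and mutant and control are used here as the labels' names. Mutant 0, mutant 3 and control 4 stood apart by high Xist, which marks female tissue. In bulk tissue, fewer cells of a type and less RNA per cell cannot be told apart.

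Upstream sequences are shown for the gene with the largest difference of level, Slc26a9. They are also shown for the pair of calcium exchangers that fell with no overlap of CPM between groups, Slc24a2 and Slc8a2. The aim is to show how different their starts are in base composition and core promoter letters. Each sequence is the 250 bases before a transcription start in RefSeq, build GRCm38.p6, written 5′ to 3′ on the gene's strand. Capitals mark TATAAA and CCAAT on either strand.
Slc26a9: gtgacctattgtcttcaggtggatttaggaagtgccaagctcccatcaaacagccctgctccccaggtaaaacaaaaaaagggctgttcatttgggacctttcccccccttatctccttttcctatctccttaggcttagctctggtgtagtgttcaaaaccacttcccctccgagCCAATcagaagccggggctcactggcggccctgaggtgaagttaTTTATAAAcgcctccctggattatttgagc
Slc24a2: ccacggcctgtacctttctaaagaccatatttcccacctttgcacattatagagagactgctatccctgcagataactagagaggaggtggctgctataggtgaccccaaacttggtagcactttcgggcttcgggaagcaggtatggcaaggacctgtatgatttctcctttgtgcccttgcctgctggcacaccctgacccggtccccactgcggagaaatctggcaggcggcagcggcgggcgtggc
Slc8a2: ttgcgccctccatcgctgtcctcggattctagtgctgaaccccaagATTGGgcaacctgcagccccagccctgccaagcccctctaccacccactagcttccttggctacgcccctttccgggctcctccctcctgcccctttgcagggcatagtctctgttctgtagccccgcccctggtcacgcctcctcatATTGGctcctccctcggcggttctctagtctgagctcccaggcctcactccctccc

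The Slc26a9 window lies at chr1:131743772-131744021 on the plus strand, the Slc24a2 window at chr4:87230541-87230790 on the minus strand and the Slc8a2 window at chr7:16129576-16129825 on the plus strand. The Slc26a9 window holds TATAAA beginning 28 bases before the start, overlapped by its own reverse complement, and CCAAT at 74 bases. The Slc8a2 window holds CCAAT on the other strand at 204 and at 56 bases, and its start lies 474 bases from the 5′ end of the gene in the deposited table. RefSeq lists 2 windows for Slc24a2, and the one shown, at the 5′ end of the gene in the deposited table, holds neither motif. Of all 32851 RefSeq windows of this length, 12.4% hold TATAAA and 33.8% hold CCAAT on either strand. Their median GC content is 52.4%, against 50% for Slc26a9, 56% for Slc24a2 and 63.2% for Slc8a2. Isl1 is a homeodomain protein, and homeodomains as a class bind short TAAT-type letters, so the letters TAATTA were also searched on both strands, as were TAATTG and, as a further variant, TAATGG. At least 1 of them occurs in 8 of the 49 windows of the 38 exchanger genes with a window, 16.3%, against 16.7% of all windows, and in none of the 3 windows shown. The second window of Slc24a2, not shown, does hold such letters. These matches are letters in a window and not binding sites.

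By level per length (the deposited FPKM, averaged over all 12 libraries), the abundant genes included the scaffold gene Slc9a3r1 at 35.3, the chloride-bicarbonate exchanger gene Slc4a3 at 25.9 and the sodium-potassium-chloride cotransporter gene Slc12a2 at 25.1. Slc9a3r2 was at 22.7, Slc12a7 at 20.3, Slc4a2 at 17.2 and Slc9a8 at 16.5. Neighbours in this order, such as Slc4a3 (25.5 ± 1.46 FPKM in mutants and 26.3 ± 2.69 in controls) and Slc12a2 (25.5 ± 3.43 in mutants and 24.7 ± 4.35 in controls, SD, n = 6 each), lay within their spread. In control 0 and mutant 0 the deposited FPKM departed, by gene, from FPKM rebuilt from counts with lengths implied by the other libraries. It was 1.16 and 1.19 times the rebuilt value for Slc12a2, and 0.883 and 0.867 times for Slc9a3r2. The calcium exchangers were led by Slc24a3 at 11.3 FPKM and Slc24a2 at 8.27, and the SLC26 family by Slc26a7 at 7.47 and Slc26a11 at 5.55. At the low end, 14 genes did not reach the level required for testing, an FPKM of 1 in at least 6 of the 12 libraries. They include the kidney cotransporters Slc12a1 and Slc12a3, the gut and thyroid-type anion exchangers Slc26a3 and Slc26a4, the rod photoreceptor exchanger Slc24a1 and the sperm exchanger Slc9a10. The last had 0 fragments in 9 of the 12 libraries.

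**Figure D1:**
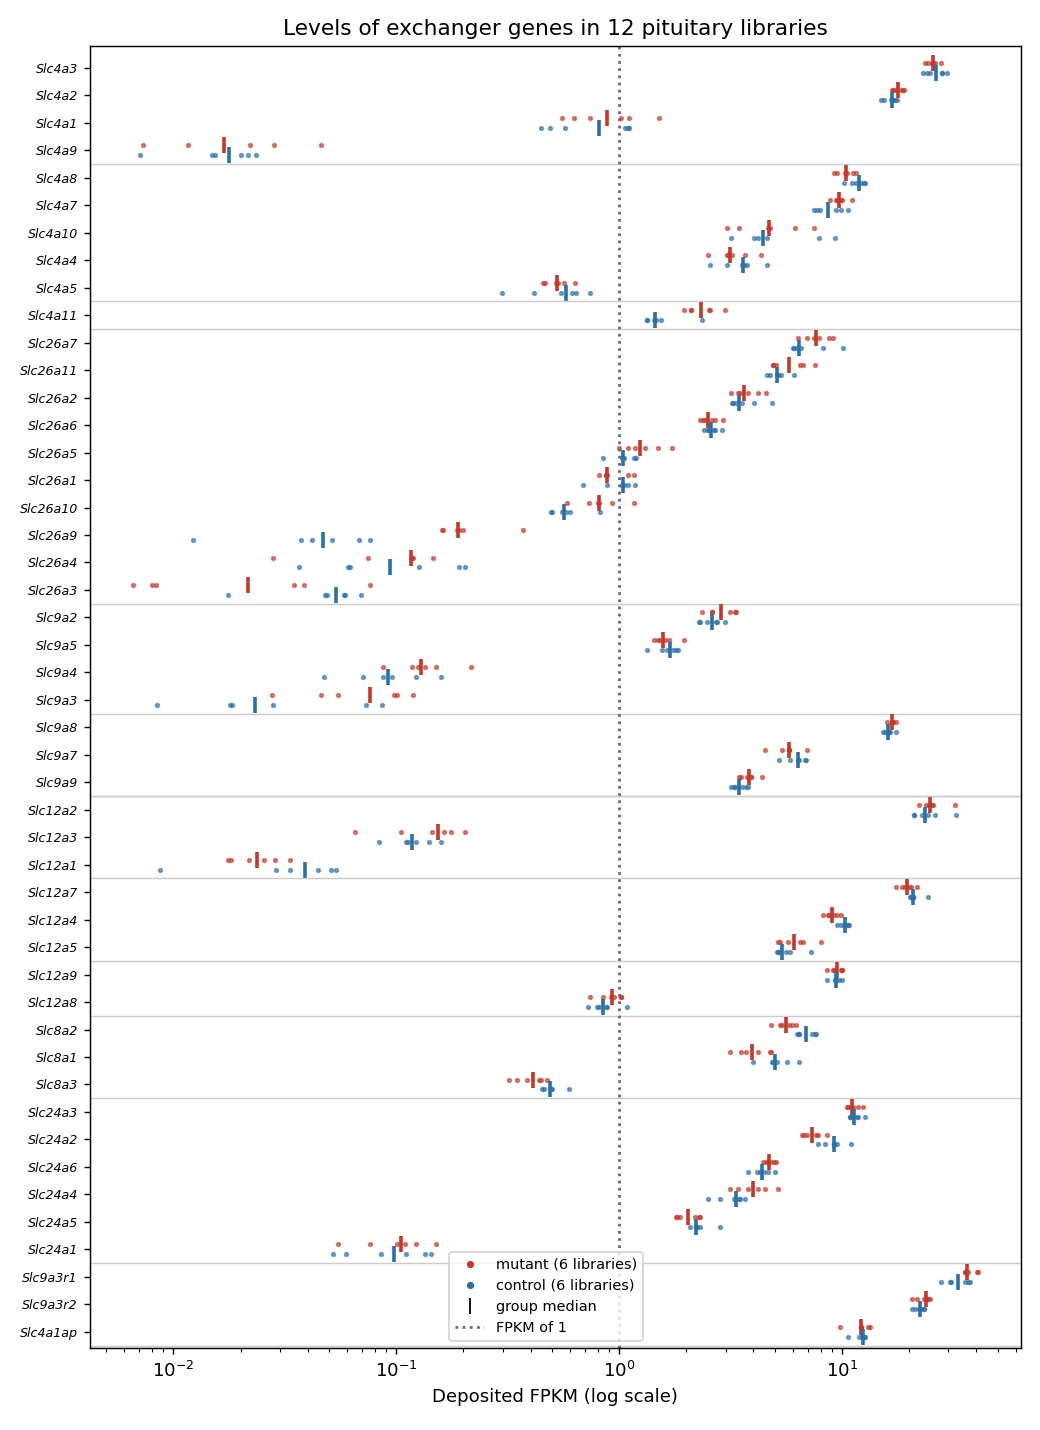
Deposited FPKM (log axis) of 47 of the 51 genes in each of the 12 libraries, ordered by role and level, with red points for 6 mutant and blue points for 6 control libraries, short vertical bars for the group medians and a dotted line at an FPKM of 1. Values of 0 cannot be drawn on a log axis. Slc9a10, at most 0.00573 FPKM in any library, is left out for its low level. Levels run over more than 3 decades between genes, while the groups overlap for nearly every gene.

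Few of these genes differed between the groups. With edgeR's quasi-likelihood test and Benjamini-Hochberg adjustment over all 15246 genes tested, 3 of the 37 passed an adjusted p of 0.05: Slc4a11 was higher in mutants, and Slc8a2 and Slc24a2 were lower. The same test called 7.05% of all genes tested, 4.3% higher and 2.75% lower. At an unadjusted p under 0.05 there were 11 of the 37, 5 higher and 6 lower, where 22.3% of all tested genes reached that level (11% higher and 11.3% lower). The median log2 fold change, mutant over control, was 0.02 for the 37 genes and -0.0036 for all tested genes. The median size of the change without its sign was 0.12 for the 37 genes and 0.07 for all tested genes. Another gene, Slc26a9, was too rare for the level filter and had the largest difference of mean log2(CPM + 0.1) of all 51.

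**Figure D2:**
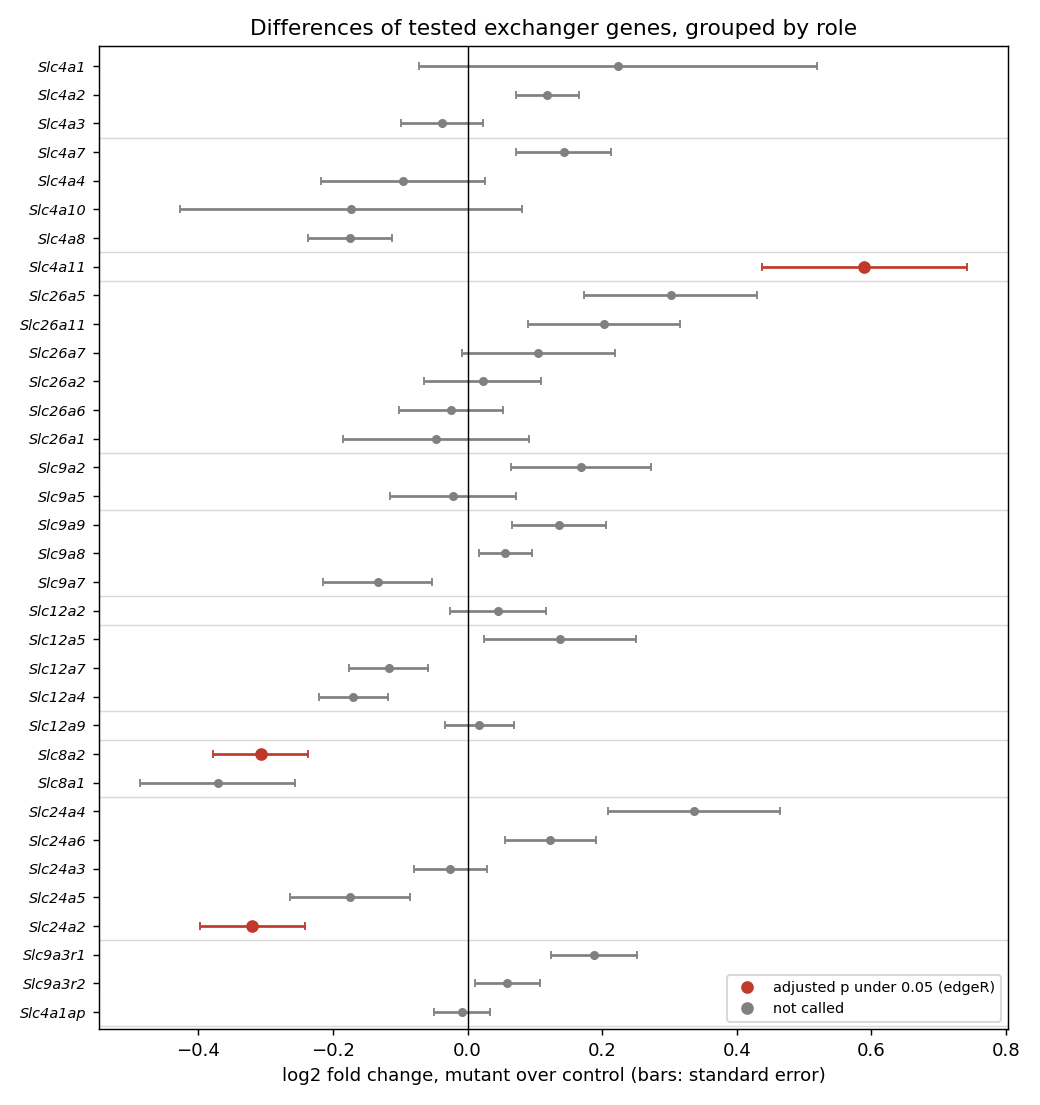
Log2 fold change, mutant over control, of 34 tested genes from edgeR, with standard errors as bars, ordered by role. Red marks the 3 genes with an adjusted p under 0.05, Slc4a11 on the right at 0.59 and Slc8a2 and Slc24a2 on the left at -0.31 and -0.32.

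Among the genes for sodium-calcium exchange, the SLC8 and SLC24 families, both calls were for lower levels. Of the 9 sodium-calcium exchanger genes, 7 were tested, and 2 were called, both lower in mutants, where 2.75% of all tested genes were called lower. Summed over all 9 genes, the level was 216 to 270 CPM in mutant libraries and 254 to 319 CPM in control libraries, so the ranges overlapped. Slc8a2 encodes NCX2, a plasma membrane exchanger best known from neurons. It lay between 20.1 and 25.9 CPM in mutant libraries, with a median of 23.7, and between 26.5 and 31.6 CPM in control libraries, with a median of 28.8. Every mutant library was below every control library, as for 1.37% of all tested genes. In edgeR its log2 fold change was -0.31 (standard error 0.0707, adjusted p = 0.0187). Without the 3 libraries with high Xist it was -0.29 and the call was lost (edgeR adjusted p = 0.121).

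Slc24a2 encodes NCKX2, an exchanger that also carries potassium and is abundant in neurons. It lay between 71.1 and 84.3 CPM in mutant libraries, with a median of 78.8, and between 84.5 and 118 CPM in control libraries, with a median of 98.5. The groups did not overlap in CPM, but mutant 0 and mutant 5 at 84.3 CPM came next to control 0 at 84.5 CPM. In deposited FPKM they did overlap, with mutant 0 at 8.56 and mutant 5 at 7.83. Control 2 was at 7.81 FPKM and control 0 at 8.35. In edgeR its log2 fold change was -0.32 (standard error 0.0779, adjusted p = 0.0256). Without mutant 1, 2 or 3 or without control 1 or 3 the call was lost, the edgeR adjusted p then lying between 0.0542 and 0.0666. It was also lost without the 3 libraries with high Xist, at -0.25 (edgeR adjusted p = 0.0958), and with limma (adjusted p = 0.0627 and 0.0622 with pseudocounts of 1 and 0.1). Groups were separated in this direction for 1.37% of all tested genes.

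Slc8a1, which encodes the widely expressed exchanger NCX1, had the lowest log2 fold change of the 37 genes at -0.37, but a standard error of 0.115 left it at an edgeR adjusted p of 0.0698. It lay between 60.2 and 92 CPM in mutant libraries, with a median of 73.3, and between 77 and 121 CPM in control libraries, with a median of 93. Mutant 4 and mutant 5 lay within the control range. DESeq2 called it at an adjusted p of 0.0175, and edgeR in 2 of 12 fits with 1 library left out. Limma did not call it (adjusted p = 0.15 and 0.152 with pseudocounts of 1 and 0.1). Nor did edgeR without the 3 libraries with high Xist (adjusted p = 0.309). The last member of this family, Slc8a3 or NCX3, was below the filter at 2 ± 0.316 CPM in mutants and 2.47 ± 0.287 CPM in controls (SD, n = 6 each). Its unadjusted p was 0.0152 by exact permutation of the group labels (two-sided), and 5 of its 6 mutant values were below all control values.

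None of the other tested SLC24 genes passed. Slc24a3, the most abundant of the calcium exchangers per length, lay between 35.1 and 41.4 CPM in mutant libraries, with a median of 37.3, and between 35.8 and 42.9 CPM in control libraries, with a median of 38. Its log2 fold change was -0.03 with an edgeR adjusted p of 0.834. Slc24a4, which encodes NCKX4, the exchanger of olfactory neurons and tooth enamel, had a log2 fold change on the other side of 0, at 0.34 (standard error 0.128, edgeR adjusted p = 0.135). Slc24a6, the exchanger of the inner mitochondrial membrane, was at 0.12 (edgeR adjusted p = 0.305) and Slc24a5, the pigment cell exchanger, at -0.18 (0.266). Of the exon bases of Slc24a5, 39.5% are shared with Myef2, and the kit kept no strand, so reads of these genes cannot be told apart there.

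**Figure D3:**
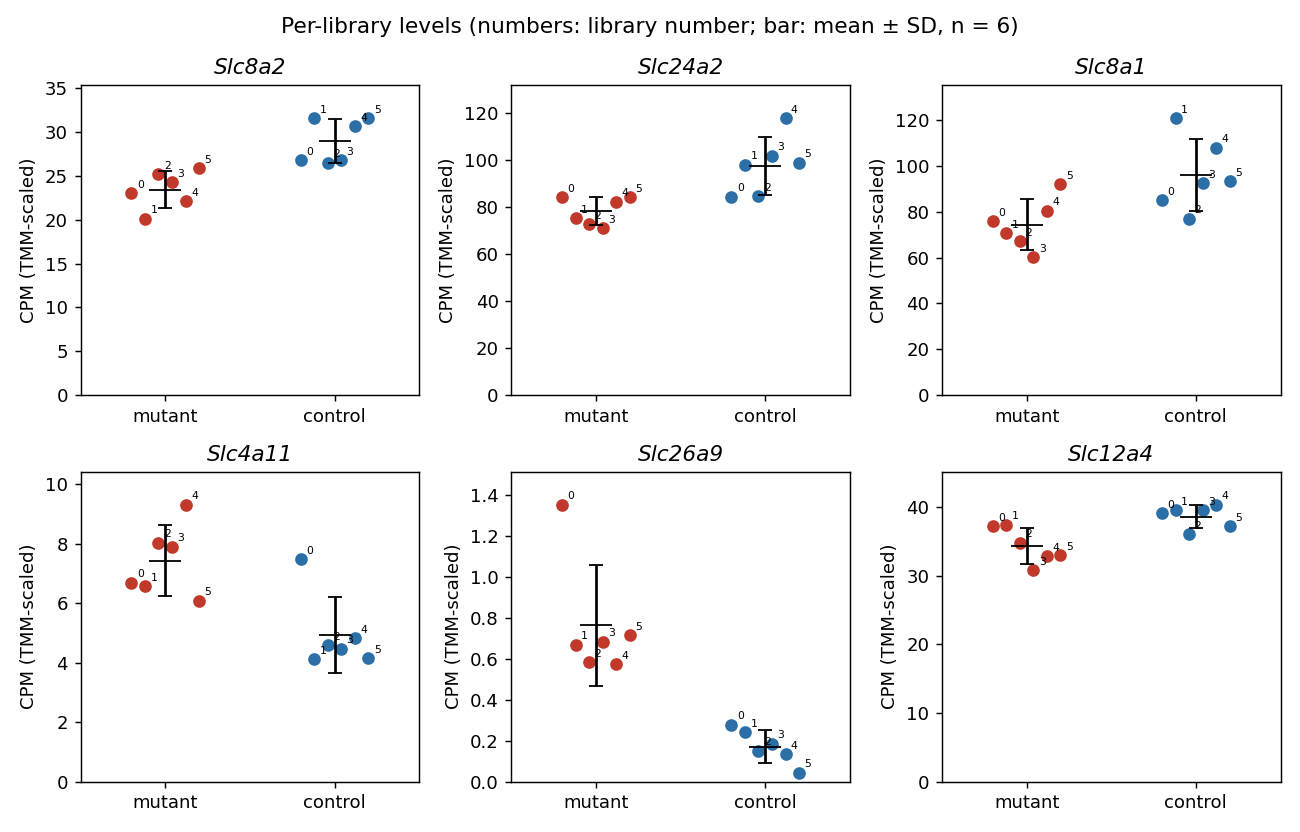
CPM (TMM-scaled, linear axes from 0) of 6 genes in every library, mutant on the left in red and control on the right in blue, with the library number beside each point and the mean ± SD (n = 6) in black. Slc8a2, Slc24a2 and Slc26a9 show no overlap, and control 0 at 7.47 CPM sets the overlap of Slc4a11.

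Among the SLC4 genes, Slc4a11 was the one that passed. Its protein, found in the corneal endothelium and the kidney and inner ear, does not carry bicarbonate and has been described as a proton or ammonia carrier. Slc4a11 (chromosome 2, 130684108 to 130697519 in the deposited table, build mm10) lay between 6.08 and 9.3 CPM in mutant libraries, with a median of 7.29, and between 4.11 and 7.47 CPM in control libraries, with a median of 4.53. All mutant libraries were above 5 of the 6 control libraries, and control 0 at 7.47 CPM lay above 3 of them. It rose, and edgeR put its log2 fold change at 0.59 (standard error 0.152, adjusted p = 0.0328). Without control 0 the log2 fold change was 0.75 (edgeR adjusted p = 0.00124). The call was lost in 8 of the 12 fits with 1 library left out: without mutant 2, 3 or 4 or any control but control 0, the edgeR adjusted p then lying between 0.0546 and 0.0799. Without the 3 libraries with high Xist the log2 fold change was 0.60 (edgeR adjusted p = 0.14).

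The chloride-bicarbonate exchangers AE1, AE2 and AE3, which load chloride and remove base, are encoded by Slc4a1, Slc4a2 and Slc4a3. None of the 3 passed. Slc4a3 lay between 104 and 122 CPM in mutant libraries, with a median of 114, and between 102 and 130 CPM in control libraries, with a median of 117. Slc4a2 lay between 67.1 and 76.2 CPM in mutant libraries, with a median of 71, and between 59.4 and 70.5 CPM in control libraries, with a median of 66.8. For Slc4a2, 3 mutant libraries exceeded all controls, which edgeR put at 0.12 on the log2 scale (adjusted p = 0.155), and 13.7% of its exon bases are shared with Fastk and Gm22333. Slc4a1, the exchanger of red blood cells, had 4.23 ± 1.65 CPM in mutants and 3.61 ± 1.48 CPM in controls (SD, n = 6 each), with a standard error of 0.296 on its log2 fold change.

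The sodium-coupled bicarbonate transporters bring base into cells. Slc4a8, which encodes the sodium-driven chloride-bicarbonate exchanger, had 112 to 135 CPM in mutant libraries and 124 to 154 CPM in control libraries, which edgeR put at -0.17 on the log2 scale (adjusted p = 0.111). Slc4a7, the electroneutral cotransporter NBCn1, had 64.8 to 75.1 CPM in mutant libraries and 55.4 to 74.7 CPM in control libraries, which edgeR put at 0.14 on the log2 scale (adjusted p = 0.252). Slc4a4, the electrogenic cotransporter NBCe1, had a log2 fold change of -0.10 (edgeR adjusted p = 0.703). Slc4a10, a sodium-driven transporter known from neurons and the choroid plexus, had 25.9 ± 7.6 CPM in mutants and 29.1 ± 11.9 CPM in controls (SD, n = 6 each). Its highest library stood 2.74 times above its lowest, the widest spread of the tested genes apart from Slc4a1, at 3.4 times. Below the filter were Slc4a5, a sodium-bicarbonate cotransporter gene, at 2.7 ± 0.336 CPM in mutants and 2.77 ± 0.819 CPM in controls, and Slc4a9, known from kidney intercalated cells, at 0.0553 ± 0.0475 CPM in mutants and 0.049 ± 0.0172 CPM in controls (SD, n = 6 each).

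Of the SLC26 anion transporters, Slc26a9 differed most. It encodes a chloride channel and transporter of airway and stomach epithelium. Slc26a9 (chromosome 1, 131744022 to 131770405 in the deposited table, build mm10) lay between 0.573 and 1.35 CPM in mutant libraries, with a median of 0.676, and between 0.0436 and 0.277 CPM in control libraries, with a median of 0.168. Every mutant library was above every control library, a separation that 2.91% of all tested genes showed, and mutant 0 was the highest. The difference of mean log2(CPM + 0.1) was 1.68, and exact permutation of the group labels (two-sided) gave an unadjusted p of 0.00216, the smallest it can give. Control libraries held 50 fragments of this gene in all. When edgeR was run with its own filter, filterByExpr, which kept 19345 genes, its fitted level was 4.29-fold higher in mutants. The gene entered that fit through its mutant libraries, which held 26 to 61 fragments each, against 2 to 14 in control libraries, so its call there is not given as support. That fit called 4.81% of its genes higher and 2.7% lower.

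None of the other tested SLC26 genes passed. Slc26a7, a chloride carrier of stomach, kidney and thyroid, lay between 14.2 and 20.6 CPM in mutant libraries, with a median of 17, and between 13.5 and 20.4 CPM in control libraries, with a median of 14.5. Slc26a11, a sulfate and chloride carrier, lay between 12.7 and 19.5 CPM in mutant libraries, with a median of 14.9, and between 12 and 15.7 CPM in control libraries, with a median of 13.2. On the log2 scale Slc26a7 differed by 0.11 (edgeR adjusted p = 0.643) and Slc26a11 by 0.20 (0.314). Slc26a5, which encodes prestin, the motor protein of outer hair cells, was near 1 FPKM and had a log2 fold change of 0.30 (edgeR adjusted p = 0.181). Slc26a10 was below the filter at 1.75 ± 0.402 CPM in mutants and 1.23 ± 0.246 CPM in controls (SD, n = 6 each), with an unadjusted p of 0.0173 by the same exact permutation. Of its exon bases, 17.8% are shared with B4galnt1. Slc26a2, a sulfate carrier needed in cartilage, was at 0.02 on the log2 scale (edgeR adjusted p = 0.913), Slc26a6, an anion exchanger of many epithelia, at -0.02 (0.892) and Slc26a1, a sulfate carrier of liver and kidney, at -0.05 (0.883). Pendrin (Slc26a4) and the gut exchanger Slc26a3 stayed below 0.6 CPM in every library.

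The epithelial marker lists differed alongside Slc26a9 and Slc4a11. Summed levels were 26.9 to 39.1 CPM in mutant libraries and 18.2 to 23.2 CPM in control libraries for 11 ionocyte genes, 2 of which, Cftr and Bsnd, are also in the list of epithelial channels. They were 175 to 258 CPM in mutants and 125 to 140 CPM in controls for 7 genes of motile ciliated cells, and 45.6 to 97.8 CPM in mutants and 10.4 to 14.5 CPM in controls for 7 genes of basal and stratified epithelium. For 11 genes of simple and secretory epithelium the sums were 860 to 962 CPM in mutants and 585 to 723 CPM in controls. Mutant 0, the highest library for Slc26a9, also had the highest sum of each of these 4 lists. For Slc4a11 mutant 0 was at 6.69 CPM, below mutant 2, 3 and 4, and mutant 4 was the highest at 9.3 CPM. Control 0, the highest control library for Slc4a11, had the highest control sum of basal and stratified epithelium only. Over all genes of these lists found in the table, tested or not, the mean CPM was higher in mutants for 9 of 11 ionocyte genes, 7 of 7 ciliated, 7 of 7 basal and 10 of 11 simple epithelial genes. No listed gene was at 0 in all libraries of a group. What part these cells have in the levels of Slc26a9, Slc4a11 and the epithelial genes named further on, Fxyd3, Scnn1a and Cftr, was not tested.

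The 10 anterior pituitary genes, mostly hormones, summed to 46300 to 53300 CPM in mutant libraries and 45900 to 63300 CPM in control libraries. Most of that sum came from 1 hormone gene (42000 CPM in mutants and 46800 in controls), so it says little about the others. The median log2 fold change of the 10 was -0.41, and 1 of the 10 had a higher mean CPM in mutants. Of the 10, 3 were called lower, against 2.75% of all tested genes. The list for neurons, the cells in which Slc8a2 and Slc24a2 are best known, summed to 496 to 577 CPM in mutants and 464 to 580 CPM in controls. Most of that sum came from Syt1 (295 CPM in mutants and 279 in controls) and Snap25 (176 and 179), so it mainly follows these genes and is no measure of neuron number. Of the 6 neuronal genes, all tested, 1 was called higher, Stmn2 at a log2 fold change of 0.58 (edgeR adjusted p = 0.0142), and 1 lower, Nefm at -0.53 (0.00188), with every mutant library below every control library for Nefm. Of all tested genes, 4.3% were called higher and 2.75% lower, and 1.37% had every mutant library below every control library. The part of neurons in the lower Slc8a2 and Slc24a2 was not tested. The posterior lobe list summed to 30.8 to 46 CPM in mutants and 36.3 to 47.3 CPM in controls.

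Sodium-proton exchangers set cytosolic and organelle pH, and none of the 7 tested passed. Slc9a8, the exchanger of the Golgi and endosomes, lay between 71 and 78.2 CPM in mutant libraries, with a median of 75.3, and between 68.5 and 78.7 CPM in control libraries, with a median of 70.5. Slc9a2, Slc9a5, Slc9a7 and Slc9a9 had log2 fold changes of 0.17, -0.02, -0.13 and 0.14. The kidney and gut exchangers Slc9a3 and Slc9a4 were below the filter, and neither had an unadjusted permutation p under 0.05 (exact, two-sided, p = 0.0996 and 0.106).

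In secretory cells and neurons the SLC12 cotransporters set chloride and thereby the direction of GABA and glycine currents. The gene for the loader NKCC1, Slc12a2, lay between 145 and 177 CPM in mutant libraries, with a median of 164, and between 138 and 184 CPM in control libraries, with a median of 155. It did not pass, being at 0.05 on the log2 scale (edgeR adjusted p = 0.770).

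Potassium-chloride cotransporters carry chloride out of cells. Slc12a4, the widely expressed KCC1, came nearest to a call in this family: 30.8 to 37.4 CPM in mutant libraries and 36 to 40.3 CPM in control libraries, and edgeR put its log2 fold change at -0.17 (standard error 0.0517, adjusted p = 0.0662). DESeq2 called it at an adjusted p of 0.025, and edgeR in 2 of 12 fits with 1 library left out. Limma did not call it (adjusted p = 0.0819 and 0.0795 with pseudocounts of 1 and 0.1). Nor did edgeR without the 3 libraries with high Xist (adjusted p = 0.184). Of its exon bases, 8.44% are shared with Gm16156. Slc12a7, KCC4, was at -0.12 (edgeR adjusted p = 0.260) and Slc12a5, the neuronal KCC2, at 0.14 (0.525). Slc12a9, whose substrate is less well defined, had a log2 fold change of 0.02. Slc12a8 was below the filter at 2.79 ± 0.325 CPM in mutants and 2.62 ± 0.332 CPM in controls (SD, n = 6 each).

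The scaffolds tie exchangers and channels to the actin cortex through ezrin. Slc9a3r1 lay between 63.8 and 73.3 CPM in mutant libraries, with a median of 67.6, and between 53.7 and 66.9 CPM in control libraries, with a median of 59.2. Of the mutant libraries, 3 lay above all controls, and edgeR put the difference at 0.19 on the log2 scale (standard error 0.0637, adjusted p = 0.0969). DESeq2 called it at an adjusted p of 0.0494, but edgeR in 0 of 12 fits with 1 library left out. Limma did not call it (adjusted p = 0.22 and 0.219 with pseudocounts of 1 and 0.1). Nor did edgeR without the 3 libraries with high Xist (adjusted p = 0.272). Slc9a3r2 lay between 40.8 and 47 CPM in mutant libraries, with a median of 45.2, and between 39.1 and 47.5 CPM in control libraries, with a median of 43. Slc4a1ap was at 28.7 ± 1.65 CPM in mutants and 28.8 ± 0.719 CPM in controls (SD, n = 6 each).

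In the authors' deposited table, made with Cuffdiff, 42 of the 51 genes have a test, and 2 are marked as changed, both higher: Slc26a9 with a log2 fold change of 2.15 and Slc4a11 with 0.59, each with q = 0.0012. Marked genes need q no higher than 0.05 together with a fold no lower than 1.5, and 3.61% of all genes tested there are marked. Such a q with a smaller fold stands in the authors' deposited table for 3 of these genes, all lower: Slc24a2 at -0.31, Slc8a2 at -0.31 and Slc8a1 at -0.36. A q of at most 0.05 was reached there by 5.2% of tested genes that were higher and 2.52% that were lower. The authors' deposited transcript table lists 73 transcripts of these genes, and 14 of the genes have more than 1. For Slc8a1 it lists NM_001112798 at 3.58 FPKM in mutants and 5.05 in controls (log2 fold change -0.50, q = 0.00169), and NM_011406 at 0.445 FPKM in mutants and 0.0999 in controls with q = 0.941. For Slc24a2 it lists NM_172426 at -0.34 with q = 0.027 and NM_001110240 at -0.27 with q = 0.633.

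Genes that work with the exchangers were counted by list. Of all 15246 genes tested, edgeR called 7.05%, and 22.3% had an unadjusted p under 0.05. DESeq2 called 935 of all genes higher and 807 lower. Active carbonic anhydrases make the bicarbonate that SLC4 and SLC26 proteins carry, though some listed genes, Car8 among them, encode related proteins without that activity. Of the carbonic anhydrase list, edgeR called 0 of 9 tested, as did DESeq2, while 3 had an unadjusted p under 0.05 in edgeR. The nearest by adjusted p were, in log2 fold change, Car8 at 0.13 (edgeR adjusted p = 0.101) and Car9, which responds to low oxygen, at 0.54 (0.143). Car12 followed at 0.47 (0.151) and Car15 at 0.28 (0.251). Of the WNK and SPAK kinases and their regulators, which switch SLC12 transporters by phosphorylation, edgeR called 0 of 12 tested, with 1 at an unadjusted p under 0.05, Oxsr1 at -0.09 (edgeR adjusted p = 0.104), which was also the 1 gene that DESeq2 called. Of the binding partners of exchangers, ezrin, radixin, moesin, calmodulins and others, edgeR called 0 of 10 tested, with 3 at an unadjusted p under 0.05, and DESeq2 called 2, Ezr and Rdx. Ezr, which encodes ezrin, came closest, with every mutant above every control library at 185 ± 13.8 CPM in mutants and 158 ± 15.6 CPM in controls (SD, n = 6 each; log2 fold change 0.23, edgeR adjusted p = 0.0566). Groups were separated in that direction for 2.91% of all tested genes.

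Of the 14 tested genes for sodium and calcium pumps, 1 was called higher and 2 lower, against 4.3% and 2.75% of all tested genes. Fxyd3, a regulatory subunit of the sodium pump found in epithelia, had 1.45 ± 0.466 CPM in mutants and 0.454 ± 0.108 CPM in controls (SD, n = 6 each), and rose by 1.66 on the log2 scale (edgeR adjusted p = 0.00037). Atp1b2, a beta subunit of the sodium pump, had 90.8 ± 6.69 CPM in mutants and 110 ± 5.7 CPM in controls, and fell by 0.28 on the log2 scale (edgeR adjusted p = 0.00377). Atp2b1, a calcium pump of the plasma membrane that removes calcium beside the exchangers, had 305 ± 12.3 CPM in mutants and 339 ± 18.3 CPM in controls, and fell by 0.16 on the log2 scale (edgeR adjusted p = 0.0312). Atp1b1 at -0.11 (edgeR adjusted p = 0.0945) and Atp2b2 at -0.37 (0.124) were not called.

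Of the 8 tested epithelial chloride and sodium channel genes, 1 was called, against 4.3% of all tested genes called higher. It was Scnn1a, the alpha subunit of the epithelial sodium channel, at 23.8 ± 3.36 CPM in mutants and 13.4 ± 1.86 CPM in controls (SD, n = 6 each; log2 fold change 0.84, edgeR adjusted p = 0.000236). Ano9 followed at 0.32 (edgeR adjusted p = 0.0947), Best1 at 0.24 (0.147) and Ano1 at 0.10 (0.330). Cftr, whose protein works beside SLC26 proteins in bicarbonate-secreting epithelia, was below the filter. It had 4.53 ± 1.1 CPM in mutants and 2.22 ± 0.578 CPM in controls, and with filterByExpr its log2 fold change was 1.02 and the edgeR adjusted p 0.00384. None of the 3 gastric-type proton pump genes reached the filter.

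**Figure D4:**
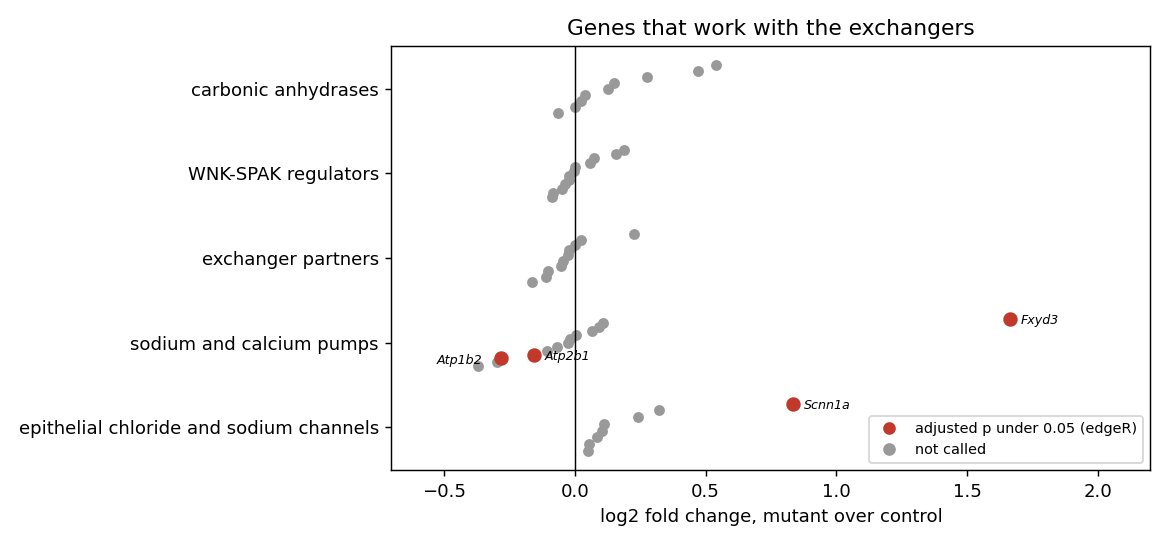
Log2 fold change, mutant over control (edgeR), of tested genes in 5 lists of partners, 1 point per gene shown and 1 row of points per list, with called genes in red and named. The red points are Fxyd3 at 1.66, Scnn1a at 0.84, Atp2b1 at -0.16 and Atp1b2 at -0.28.

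Some exchanger genes varied between libraries of the same group rather than between groups. Altogether 4 relations between a gene and a marker list, chosen after their values had been seen, were computed over the 12 libraries on log2 values, and are given as descriptions with no test. Libraries with a higher summed level of 4 fibroblast genes had more Slc4a10 (Pearson r = 0.776, Spearman rho = 0.804). Within groups r was 0.711 in mutants and 0.906 in controls, and without control 1 and control 3, the farthest from the median fibroblast level, it was 0.638. For Slc26a7 r was 0.806 and rho 0.797, with r = 0.771 in mutants, 0.833 in controls and 0.868 without the same libraries. Fibroblast sums were 2110 to 2840 CPM in mutants and 1710 to 3590 CPM in controls. Most of each sum came from the collagen genes Col1a1 (1070 CPM in mutants and 1060 in controls) and Col1a2 (998 and 969). The sum therefore mainly follows these collagen genes and is no measure of fibroblast number. Between Slc12a5 and neuronal genes r was -0.305 and rho -0.517, with r = -0.746 in mutants, -0.105 in controls and -0.56 without control 1 and control 3. Between Slc4a1 and erythroid genes r was -0.052 and rho -0.315, with r = 0.136 in mutants, -0.614 in controls and -0.223 without mutant 2 and mutant 3.

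**Figure D5:**
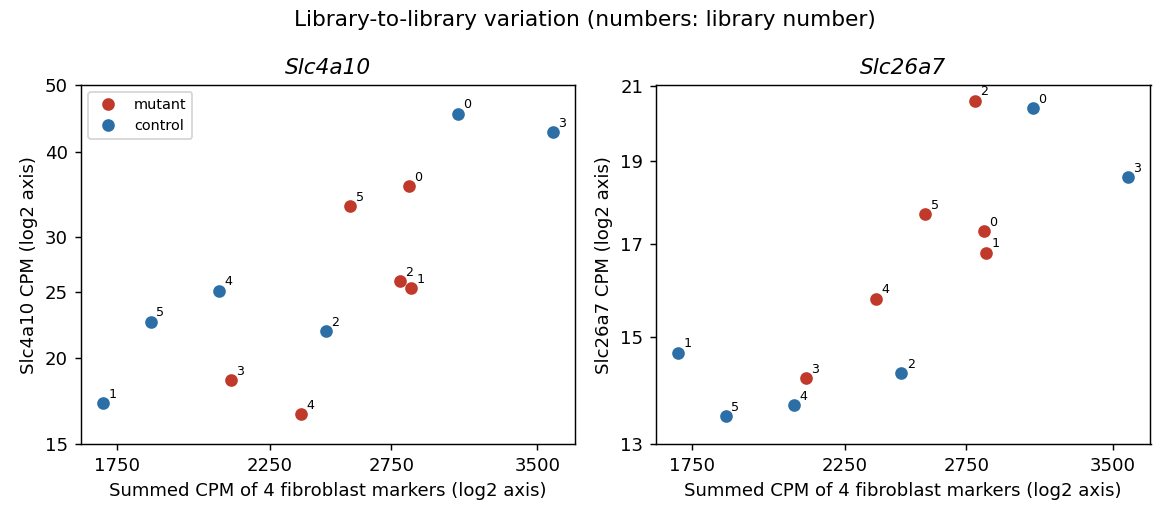
CPM of Slc4a10 (left) and Slc26a7 (right) against the summed CPM of 4 fibroblast genes, both on log2 axes, with 1 point per library, red for mutant and blue for control, and the library number beside each point. In both panels control 0 and control 3 lie at the upper right, and the groups lie among each other.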

How the data were processed

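Total RNA of 12 pituitaries (6 mutant, 6 control, grouped by the genotype in the labels) was made into TruSeq RNA v2 libraries, per the labels' protocols. The submitters' processing notes name build mm10, Bowtie2 2.1.0, TopHat2 2.0.9, FastQC 0.10.1, Cuffdiff 2.1.1 and Cufflinks. The deposited per-library table gives estimated counts of fragments and FPKM for each gene, per the file headers. The authors' deposited comparison tables give FPKM, a log2 fold change and a q-value from Cuffdiff. Another 12 columns of scaled fragments were not used.

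Estimated counts were rounded. The 15246 genes that reached an FPKM of 1 in 6 or more of 12 libraries entered edgeR's quasi-likelihood test (edgeR 4.0.16 in R 4.3.3; TMM scaling; Benjamini-Hochberg adjusted p under 0.05). Genes outside the filter got an exact permutation test on log2(CPM + 0.1). The members and lists were chosen with earlier results of these data known. A few genes counted in the totals are not reported here. The other members were named, with library values for called ones and the 2 most abundant per family, and from each partner list the called genes and up to 4 more by adjusted p. All 30 pairs of replicates differed beyond sampling noise (chi-square over its degrees of freedom 17.3 to 41.1), so no library counts as a duplicate. The p-values rest on the spread between samples, which may be technical in part. In simulated counts of this comparison, 44% of 50 genes changed 1.25-fold were called, as were 80% of those changed 1.5-fold, 100% at 2-fold, 94% at 4-fold and 6 of 15046 unchanged genes. Alternatives were other filters, scalings and pseudocounts, limma 3.58.1, DESeq2 1.42.0, a Y-linked covariate, a replicate block and fits without single libraries. Exon overlap came from GENCODE M21. Figures were drawn with matplotlib 3.10.9.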

Additional observations from a re-analysis of the deposited data

Results flagged for a closer look

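In 6 of 100 groups of 6 libraries, the highest library lay farther from the others than chance usually allows, and chance alone gives about 1 in 20. For Slc26a9, mutant 0 had 1.35 CPM and the other mutant libraries 0.573 to 0.715. For Slc4a11, control 0 had 7.47 CPM and the other controls 4.11 to 4.82. For Slc8a3, control 0 had 3.03 CPM and the other controls 2.22 to 2.47. For Slc12a7, control 3 had 125 CPM and the other controls 103 to 109. For Slc12a5, control 5 had 43.9 CPM and the other controls 30.7 to 35.5. For Slc26a10, control 5 had 1.7 CPM and the other controls 1.02 to 1.23. Without mutant 0 the difference of mean log2(CPM + 0.1) of Slc26a9 was 1.52 (exact permutation p = 0.00216, the smallest it can give). The groups still did not overlap, which fixes that p in advance.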

How the results depend on the processing

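No gene or count examined changed direction while called. Of the exchanger genes, 1 was called higher and 2 lower. Higher calls numbered 2 with filterByExpr and with no filter (Slc26a9 added) and with DESeq2 (Slc9a3r1 added), 0 with FPKM of at least 5, which leaves Slc4a11 untested, and 0 without the 3 libraries with high Xist. Lower calls numbered 1 with limma at either pseudocount, 4 with DESeq2 (Slc8a1 and Slc12a4 added) and 0 without the 3 libraries with high Xist, a fit with fewer samples. Leaving out 1 library gave 0 to 1 higher and 1 to 3 lower. Slc8a2 was called in 23 of 24 alternatives, Slc24a2 in 16 of 24 and Slc4a11 in 14 of 23. In the permutation test Slc26a9 kept its direction and its unadjusted p under 0.05 in all alternatives run for it. Its groups do not overlap, so leaving out libraries or changing the pseudocount could not have altered this. It is therefore no further support. Its edgeR calls with filterByExpr and with no filter are not counted as support. Over all genes 656 were higher and 419 lower. The numbers were 283 and 192 with FPKM of at least 5, and 379 and 144 without the 3 libraries with high Xist. Lower genes numbered 216 and 214 with limma and 807 with DESeq2. With 1 library left out they ranged from 197 (without control 1) to 443, with 237, 211, 239 and 248 without mutant 1, 2, 3 and 4 and 259 and 273 without control 3 and 4. Higher genes ranged from 485 to 694. The share of calls that were higher was 61%, against 72.2% with library totals, 70.5% and 70.3% with limma, 53.7% with DESeq2 and 72.5% without the libraries with high Xist. Where no value is given for it, the cause was not tested. The replicate block called 672 higher and 401 lower genes and the same 3 exchanger genes. Same-numbered libraries correlated at -0.089 to 0.403, and 2 of 6 mutant libraries correlated best with their own number, so the numbers are not taken to pair libraries. Depth limits the rarest genes: Slc26a9 rests on 50 fragments in all controls.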
